A study of Mus musculus with 12 samples.

Results

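Open chromatin in regulatory T cells (Treg) from mice lacking a distal enhancer of Lrrc32 was set against that in wild-type (WT) Treg, using 6 of the 12 ATAC-seq libraries of the study: 3 from enhancer knockouts (KO) and 3 from WT. All libraries labelled as Treg were taken. Each library was made from nuclei of 100000 splenic T cells, enriched for CD4+ cells by magnetic depletion of the others and sorted as CD4+ and positive for GFP. Both genotypes carried the Foxp3 GFP reporter, so the controls differ from the KO by the labelled enhancer deletion alone as far as the labels say. The deleted element is labelled as lying 70 kb from Lrrc32. The other 6 libraries are of GFP-negative conventional CD4+ T cells (Tconv) from WT and KO animals, 3 each, and are used below only as a second readout of Treg regions. The sources used here give no age, sex or number of KO founder lines, and do not say that each library came from its own animal. A p-value below therefore reflects only how these libraries scatter, which may be technical in part.

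Enhancers are stretches of DNA that bind transcription factors and raise the transcription of a gene that can lie far along the chromosome. When such an element is in use its DNA is freed of nucleosomes, and the Tn5 transposase of ATAC-seq can cut it, so that reads pile up into a peak. Lrrc32 encodes GARP, a surface protein that Treg use to hold latent TGF-beta, and Foxp3 is the transcription factor that defines the Treg lineage. The deposited lists pair no peak with a gene, and no annotation of their genome build (NCBIM37) was used. Regions are therefore given by position, the labelled cell type was not checked against marker genes, and Lrrc32 itself, which is on chromosome 7 in the GRCm38.p6 gene table, was not placed on the build of the lists.

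The WT lists held 25401, 27605 and 22883 peaks in replicates 1 to 3. The KO lists held 24689, 5262 and 25400. KO replicate 2 thus gave a far shorter list than any other Treg library, and the counts of lost and gained regions and the rank fits are given with and without it. Strength bins and the ranks compared by Tconv status use the other 5 lists, and agreement between libraries is given for these and apart for KO replicate 2. The lost regions set against Tconv are those absent from all 3 KO lists, and the gained ones leave KO replicate 2 out. Since the lists carry no read counts, list length is the only measure of library yield. Over all 3 libraries the KO mean was 18450 ± 11427 peaks against 25296 ± 2363 in WT (SD, n = 3 each, two-sided exact permutation p = 0.4). Without KO replicate 2 the KO mean was 25045 ± 503 (SD, n = 2, exact permutation p = 0.8). The genotypes did not differ in list length beyond the spread between libraries, and a design of 3 against 3 cannot give a p below 0.1, nor 3 against 2 one below 0.2.

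The 131240 peaks of the 6 lists merged into 34013 regions with a median width of 623 bp. All 6 lists had a peak in 4586 regions (13.5%). The 5 lists other than KO replicate 2 shared 18370 regions (54.0%), of which 13784 were missing from KO replicate 2 alone. No other library was the sole one without a peak in more than 16 regions, a count that requires a peak in the short list of KO replicate 2. It can therefore not be set against the 13784. Among the 5 other lists, 1175 regions lacked a peak in 1 KO list alone and 1877 in 1 WT list alone. Every list stops at nearly the same p-value, with a lowest −log10 p between 5.01 and 5.06, so a region scored as absent may hold a signal just under that limit. Since these values grow with depth, the limit is not the same level of signal in lists of different yield. The lowest −log10 q was 1.95 in KO replicate 2 and 2.69 to 2.81 in the other Treg lists.

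The largest group of lost regions by number lay on chromosome 7, in the stretch chr7:105629633-105805662, which was singled out after its values were seen. A region is called lost here when all 3 WT lists and no KO list have a peak in it. Of the 9 regions in the stretch with a peak in all 3 WT lists, 4 were lost and 5, some of them between the lost ones, kept a peak in KO replicates 1 and 3. The lost regions span 73.3 kb, and no other group of lost regions with steps of at most 100 kb had more than 3 members. With the stricter peaks (−log10 q of at least 5) 2 of the 4 stayed lost, chr7:105661791-105662145 and chr7:105710837-105711903. At 50% coverage 3 stayed lost and the kept region chr7:105728635-105729408 met the rule for loss. Over the whole genome 320 of 34013 regions were lost (0.941%), or 1.61% of the 19866 regions found in all 3 WT lists.

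The strongest of the 4 was chr7:105710837-105711903, 1067 bp wide. Its percentile, meaning the share of peaks in the same list with a lower −log10 p, was 59.1, 48.0 and 52.6 in WT replicates 1 to 3, and its fold over background, a value of the authors' peak caller, was 5.96, 4.93 and 5.62. No KO Treg list and no Tconv list of either genotype had a peak there. It was thus a mid-strength peak of every WT Treg library that all 3 KO libraries and all 6 Tconv libraries lacked. Of the other lost regions of the stretch, chr7:105661791-105662145 was at percentiles 26.5, 49.7 and 31.1 in WT. The region chr7:105734587-105735112 was at 20.2, 29.1 and 7.13, and chr7:105705321-105705931 at 11.2, 3.78 and 4.34. The last of these sat close to the lower end of the lists, where absences were most frequent.

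Regions that kept a peak lay on both sides of the strongest lost one. At chr7:105728635-105729408 the percentiles were 37.1, 49.4 and 66.4 in WT against 55.5 in KO replicate 1 and 35.2 in KO replicate 3. The genotypes overlapped there, as they did at chr7:105682634-105683904 (63.5, 25.4 and 34.9 in WT, 27.3 and 44.2 in KO replicates 1 and 3) and at chr7:105637431-105639031. At chr7:105640277-105640698 both KO libraries, at 38.8 and 39.5, were under the 3 WT libraries, at 69.2, 49.0 and 47.3. KO replicate 2 had none of these 4 regions, and neither did any Tconv list. The centre of the strongest lost region was 73.1 kb from the centre of the first kept region of the stretch and 70.9 kb from that of the second. These distances do not identify the deleted element, since neither it nor Lrrc32 was placed on this build. Whether any lost region lies in the deleted DNA, which could give no peak, was not tested. The far end of the stretch, chr7:105804143-105805662, had a peak in all 12 libraries of the study, KO replicate 2 included (percentile 45.1, against 67.6 to 82.4 in the other Treg libraries).

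**Figure D1:**
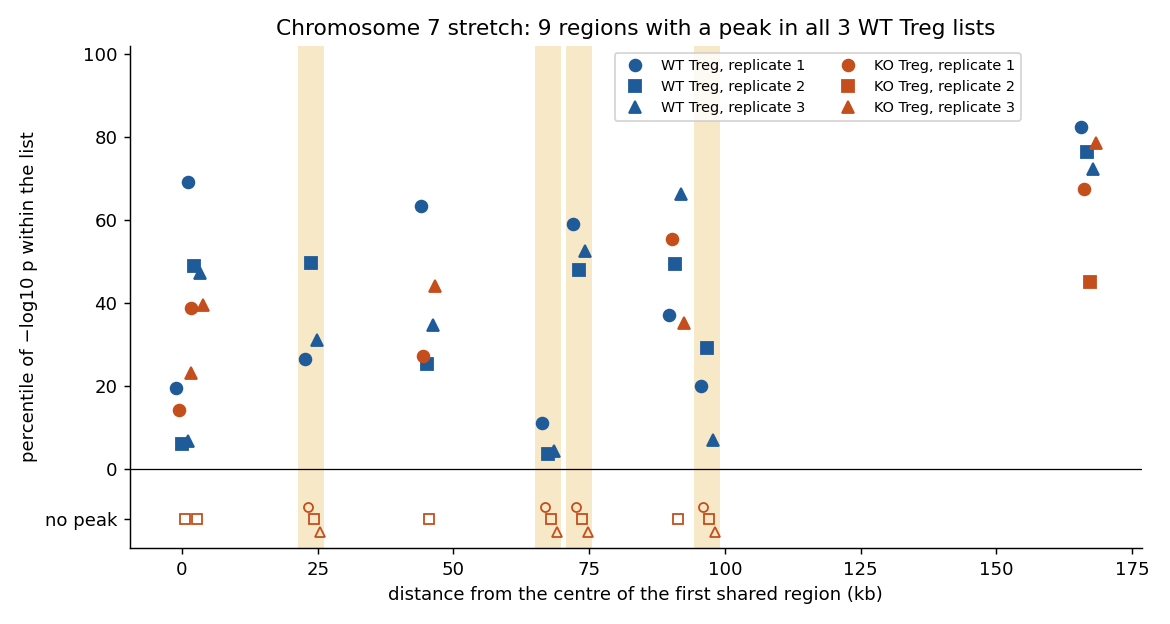
Percentile of each peak within its own list (y axis) for the 9 regions of the chromosome 7 stretch found in all 3 WT Treg lists, by distance in kb from the centre of the first of them (x axis). Filled symbols are peaks, open symbols below the line are lists with no peak, and shading marks the 4 lost regions, where only WT symbols (blue) are filled. Symbols of 1 region are shifted sideways for legibility.

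Over the whole genome, this stretch included, loss was mostly a matter of weak peaks. The 320 lost regions had a median lowest WT percentile of 9.78, against 49.99 for all 19866 regions of the 3 WT lists, and a median width of 435.5 bp against 861 bp. The share of absent regions fell as strength rose. Among regions whose lowest WT percentile was under 10, 8.83% had no peak in KO replicates 1 and 3. The share was 2.14% between 20 and 30 and 0.359% between 40 and 50. Above 60, 0 of 7892 regions were absent from both. Regions absent from WT followed the same course: of those with a lowest percentile under 10 in KO replicates 1 and 3, 10.6% had no peak in any WT list, against 0.233% between 40 and 50 and none above 50. No region above percentile 60 in every list of one genotype was missing from the other.

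**Figure D2:**
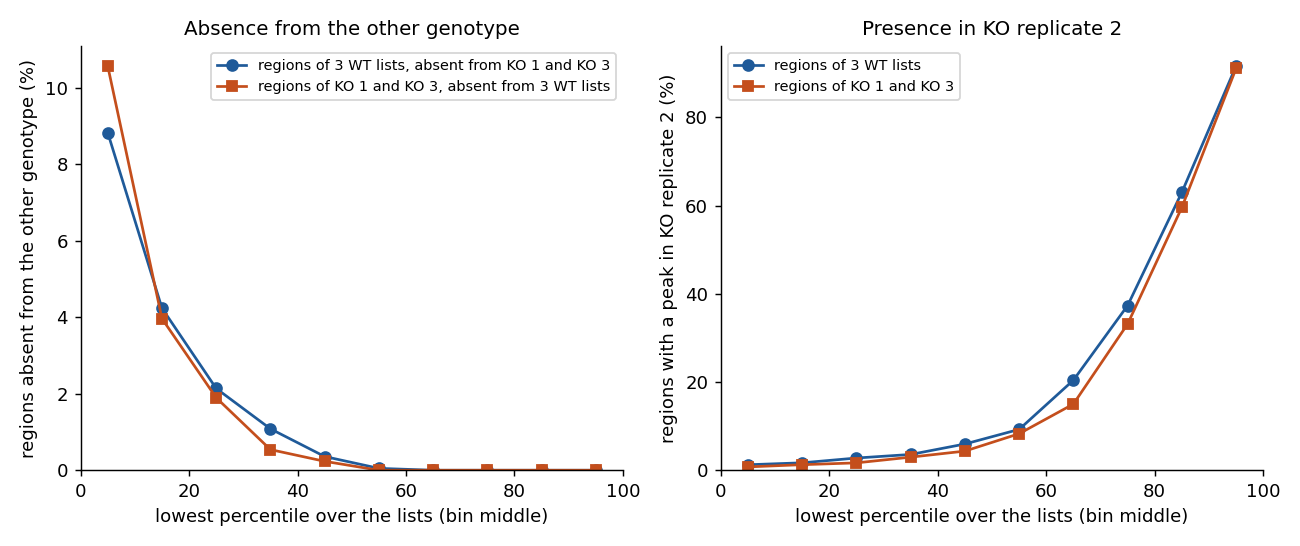
Left, percent of regions without a peak in the other genotype, by the lowest percentile of the region over the lists that hold it (KO replicate 2 left out); right, percent of the same regions with a peak in KO replicate 2. Absence falls from 8.83% and 10.6% of regions in the weakest bin to none in the upper bins, and KO replicate 2 holds 1.25% of the weakest and 91.7% of the strongest regions of the WT lists.

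KO replicate 2 shows the limit of its list in the same view. It had a peak in 1.25% of the regions of the weakest WT bin, 9.26% of those between 50 and 60 and 91.7% of those above 90. Requiring its absence therefore adds almost nothing to the rule, and without it 321 regions were lost (0.944%). Requiring its presence is another matter for gains. A peak in all 3 KO lists and no WT list was found in 10 regions (0.0294%), against 353 regions (1.04%) with a peak in KO replicates 1 and 3 and in no WT list. The 353 are 1.65% of the 21439 regions shared by those 2 KO lists, close to the 1.61% lost among WT regions. Losses and gains were thus similar in number in these 5 lists, but not with 1 list fewer: 982 were lost and 489 gained without WT replicate 3, and 821 lost and 1612 gained without KO replicate 1.

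Only 1 lost region was above the median of all 3 WT lists. This was chr16:21165995-21166184, 190 bp wide, at percentiles 52.0, 69.6 and 53.5, and all 6 Tconv lists had a peak there (32.3 to 58.8). The chromosome 7 region described above came second by its lowest WT percentile. Next was chr8:13660391-13660669 (47.3, 59.1 and 49.1), with a Tconv peak in KO replicate 2 alone, and a region of chromosome 18 (57.6, 45.6 and 46.1) with none. The region chr5:147669282-147669654 (44.9, 43.2 and 53.3) also had no Tconv peak. Of the 10 lost regions with the highest lowest percentile, 5 had a peak in at least 5 Tconv lists, among them chr10:127613536-127613864 (44.6 to 56.6 in WT Treg, 43.2 to 68.2 in Tconv) and chr6:103414916-103416154 (38.5 to 59.9 in WT Treg, 67.5 to 87.3 in Tconv). Those DNA stretches were open enough for a peak in KO Tconv while no KO Treg list had one. All 10 kept the call when only peaks with a −log10 q of at least 5 were used, and 7 kept it at a required coverage of 50%.

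Of the 10 regions gained in all 3 KO lists, 5 were on chromosome X, which held 3.28% of the regions found in all 3 KO lists. Without KO replicate 2, 17 of the 353 gains (4.82%) were on X, against 643 of the 21439 regions shared by the other 2 KO lists. The strongest, chr2:135783509-135783974, was at percentiles 29.2, 44.9 and 35.6 in KO replicates 1 to 3 and had no Tconv peak. The next, chrX:120272060-120272544, was at 22.8, 53.2 and 27.9, and 5 of 6 Tconv lists had a peak in it. The region chr17:35104846-35106573 was at 11.6, 24.8 and 69.8, with Tconv peaks in all 3 KO lists (60.7 to 89.7) and in 2 WT lists (9.80 and 19.2). All of the 10 but the chromosome 2 region were under percentile 25 in at least 1 of KO replicates 1 and 3. None of the 10 kept the call with the stricter peaks. That call requires a peak in KO replicate 2, whose list then held only 1887 peaks.

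Leaving out KO replicate 2, the strongest gain was chr17:66502506-66502791, at percentiles 46.6 and 49.1 in KO replicates 1 and 3, with weak peaks in 2 KO Tconv lists (12.2 and 9.91) and none in WT Tconv. It was followed by chr10:93011891-93012159 (46.6 and 47.7), which 5 of 6 Tconv lists held. A region of chromosome 18 (46.1 and 68.4) had a peak in all 3 KO Tconv lists (55.3, 18.1 and 47.6) and in no WT list of either cell type. Of the first 10 by lowest percentile, 4 had no Tconv peak, such as chr10:98684231-98684422 (51.2 and 43.3) and chr14:61344760-61345257 (41.9 and 43.0). All 10 kept the call with the stricter peaks and with 22883 top peaks per list.

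Regions present in both genotypes were compared by their percentile rank among the shared regions, fitted with limma over all of them. Over all 6 libraries, 0 of 4586 regions passed a Benjamini-Hochberg (BH) adjusted p of 0.05 (0%), and 167 (3.64%) had an unadjusted p under 0.05. Without KO replicate 2, 0 of 18370 passed (0%), with a smallest adjusted p of 0.795, and 1126 (6.13%) were under 0.05 unadjusted. A fit on normal scores of the ranks also called 0 in both sets, with a smallest limma adjusted p of 0.908 over 6 libraries and 0.0569 without KO replicate 2. No change of rank was thus established for any region.

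Ranks were close between the genotypes. In the 18370 shared regions 73.9% of the differences between the KO and WT means were under 10 points, and 150 were over 30. The rank of every KO library was above that of every WT library in 2029 regions (11.0%) and below it in 1989 (10.8%). Over all 6 libraries this held in 236 (5.15%) and 249 (5.43%) of the 4586 regions. If genotype labels were exchangeable, label order alone would separate a share of 0.2 of regions, in either direction, with 3 against 2 libraries. With 3 against 3 that share would be 0.1. The observed shares, summed over both directions, were close to these. Separation of the genotypes in a region is therefore no sign of a genotype effect by itself. The median SD between libraries was 7.03 points in WT and 5.39 in KO. Spearman correlation of ranks was 0.867 to 0.898 between libraries of 1 genotype and 0.857 to 0.882 across genotypes, over these 18370 regions, and the mean base-pair Jaccard index, the overlap of 2 lists as a share of their union, was 0.645 and 0.644. Pairs with KO replicate 2 had correlations of 0.643 to 0.656 and Jaccard indices of 0.118 to 0.145, whatever the genotype. These correlations are over the 4606 to 4659 regions that both lists of a pair held, mostly strong ones. They cannot be compared directly with those over 18370 regions. Apart from that library, libraries of 1 genotype were hardly more alike than libraries of different genotypes.

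The region with the smallest unadjusted p was chrX:131900549-131901017, at percentiles 90.2, 92.1 and 90.1 in WT and 67.4 and 65.2 in KO replicates 1 and 3. Its rank was 33.1 points lower in KO (SE 4.51, limma adjusted p = 0.795, and 0.185 on normal scores). The Treg libraries of the genotypes did not overlap, which the choice of named regions required, and KO replicate 2 had no peak there. In Tconv, which played no part in choosing it, the percentiles were 85.5, 91.3 and 95.7 in WT and 65.3, 84.1 and 65.6 in KO, again without overlap. It was the only one of the 10 regions named by rank whose Tconv libraries were also separated. A second region 60.4 kb away, chrX:131960949-131961516, was at 89.0, 83.8 and 89.9 in WT Treg and 59.4 and 70.4 in KO, and at 88.4 to 97.5 in WT Tconv against 52.1 to 80.9 in KO Tconv. Both regions were lower in KO than in WT libraries of either cell type. In Treg the lack of overlap was also required for listing the neighbour, and overlapping neighbours were not counted.

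On the other side, chr17:66310827-66311545 was at percentiles 88.1, 86.2 and 88.8 in WT and 98.2 and 97.8 in KO replicates 1 and 3, without passing the test (14.3 points of rank, SE 2.25, limma adjusted p = 0.795, and 0.0569 on normal scores). In KO replicate 2 it was at 56.5 of that shorter list. About 112 kb further on, chr17:66423307-66423735 was at 27.2, 17.0 and 8.75 in WT against 64.1 and 59.2 in KO, and chr17:66288941-66289927, 21.9 kb to the other side, was at 9.58, 4.21 and 24.5 against 43.9 and 53.2. The strongest gained region, chr17:66502506-66502791, lies in the same neighbourhood. All 4 were higher in both KO libraries than in any WT library or, for the last, absent from WT. Also nearby, chr17:66450413-66451579 was higher in KO by only 3.01 points of rank. By contrast, chr17:66223154-66223591 close by was lower in both KO libraries (24.6 and 6.31 against 27.7 to 56.1). Shared neighbours were listed only where the genotypes did not overlap, so overlapping regions nearby were not counted. In Tconv chr17:66310827-66311545 was at 14.9 to 48.0 in WT and 37.0 to 91.0 in KO, overlapping. Neither chr17:66423307-66423735 nor chr17:66288941-66289927 had a Tconv peak.

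Near the weak end of the WT lists, chr9:119174941-119175334 was at percentiles 8.74, 10.9 and 15.5 in WT and 74.5 and 56.9 in KO, with no peak in any Tconv list or in KO replicate 2. Its rank difference was the widest of the named regions, at 50.1 points (SE 9.18, limma adjusted p = 0.795). Lower in KO, chr2:164648047-164648956 was at 91.3, 94.1 and 93.5 in WT and 80.3 and 78.4 in KO, while its Tconv percentiles overlapped (66.3 to 96.1 in WT, 87.6 to 95.6 in KO).

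**Figure D3:**
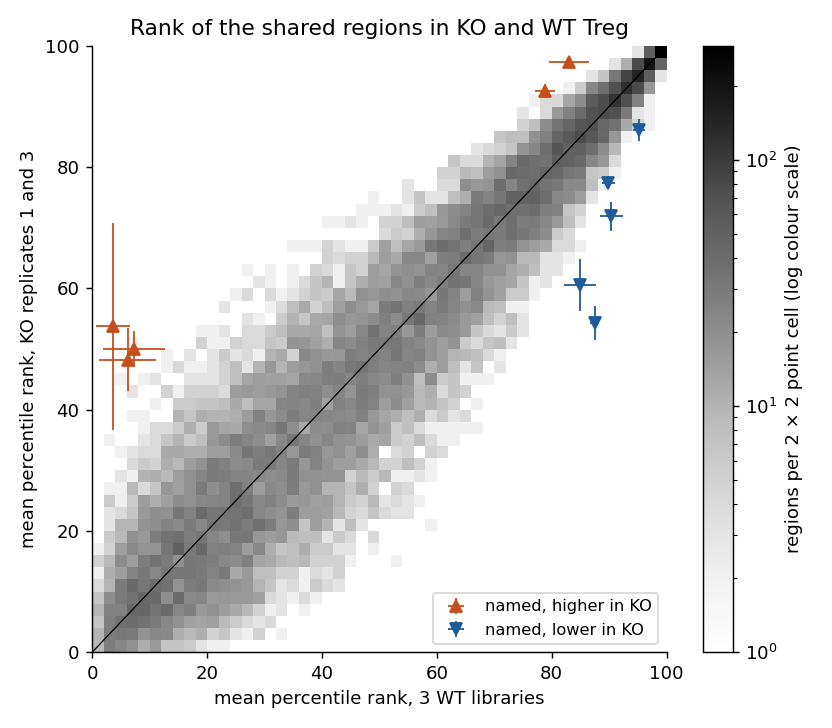
Mean percentile rank of the 18370 regions shared by the 5 Treg lists other than KO replicate 2, in WT (x axis, 3 libraries) and KO (y axis, replicates 1 and 3); grey cells count regions on a log colour scale and the line marks equality. Triangles are the 10 regions named by rank with bars of 1 SD; they lie at the edge of the cloud, and none passed the adjusted threshold.

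The Tconv lists give a readout of the same DNA that did not enter the calls. Of the 320 lost regions, 259 had a peak in at least 1 Tconv list, 79 of them in all 6, and 61 (19.1%) had none. Of the 353 gained regions, 148 had a Tconv peak, 12 of them in all 6 lists, and 205 (58.1%) had none. The sets from which these regions could come held fewer such places: 6.55% of the regions of the 3 WT lists and 9.46% of those shared by KO replicates 1 and 3 had no Tconv peak. With the stricter peaks 12.9% of lost and 43.6% of gained regions had none, against 3.89% and 6.34% of the same sets. Both lost and gained regions thus had a larger share without a Tconv peak than the regions they were drawn from, in these settings and with any 1 of the 5 libraries left out (lost 16.9% to 26.2%, gained 44.6% to 63.2%). Over all 34013 regions, however, 22.9% had no Tconv peak, which is above the share of the lost regions and below that of the gained ones. With the stricter peaks the share over all regions of the 5 lists was 13.7%, again above that of the lost regions. Strength was not matched between these sets, and the differences were not tested.

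Individual Tconv libraries held 45.0% to 57.5% of the lost regions (WT 53.1%, 55.9% and 45.0%, KO 55.6%, 57.5% and 57.2%). For the gained regions the shares were 15.3%, 17.6% and 10.5% in WT and 22.9%, 23.8% and 24.9% in KO. KO Tconv libraries thus held more of the regions gained in KO Treg than WT Tconv libraries did, without overlap. Over all regions the KO Tconv lists were also higher, at 64.9% to 65.3% against 56.4% to 63.4%. The same rules were applied to the Tconv lists at these Treg regions, which gave 34 losses and 223 gains in Tconv. Only 1 region, chr16:45192656-45192978, was lost in both cell types, or 0.313% of the Treg losses and 2.94% of the Tconv losses. Gained in both were 3 regions, 0.850% of the Treg gains and 1.35% of the Tconv gains. Over all 34013 regions 0.941% were lost and 1.04% gained in Treg, so the shared gains were near the share over all regions. The shared loss rests on 1 region, and neither overlap was tested.

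Ranks were also compared by Tconv status. The 1035 shared Treg regions with no Tconv peak had a median rank of 17.7, 15.0 and 21.7 in WT and 24.0 and 22.9 in KO replicates 1 and 3 (two-sided exact permutation p = 0.2, the smallest that 3 against 2 allow). In the 14725 with a peak in all 6 Tconv lists the medians were 58.9, 59.1 and 58.5 against 58.3 and 58.4. The KO medians were above all WT medians also in the regions with 1, 2 or 4 Tconv lists (22.4 and 22.1 against 19.1, 15.2 and 21.0 with 1 list), and they overlapped with 3 or 5 lists. The median difference between KO and WT fell from 3.77 points with no Tconv list to 0.510 with 5 and −0.213 with all 6. Within WT the median of the regions with no Tconv peak ran against list length (15.0 with 27605 peaks, 21.7 with 22883), and the part of list length was tested only by cutting all 5 lists to 22883 peaks: the medians of the 751 remaining regions with no Tconv peak were then 18.9, 16.1 and 22.4 in WT and 25.9 and 25.5 in KO.

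**Figure D4:**
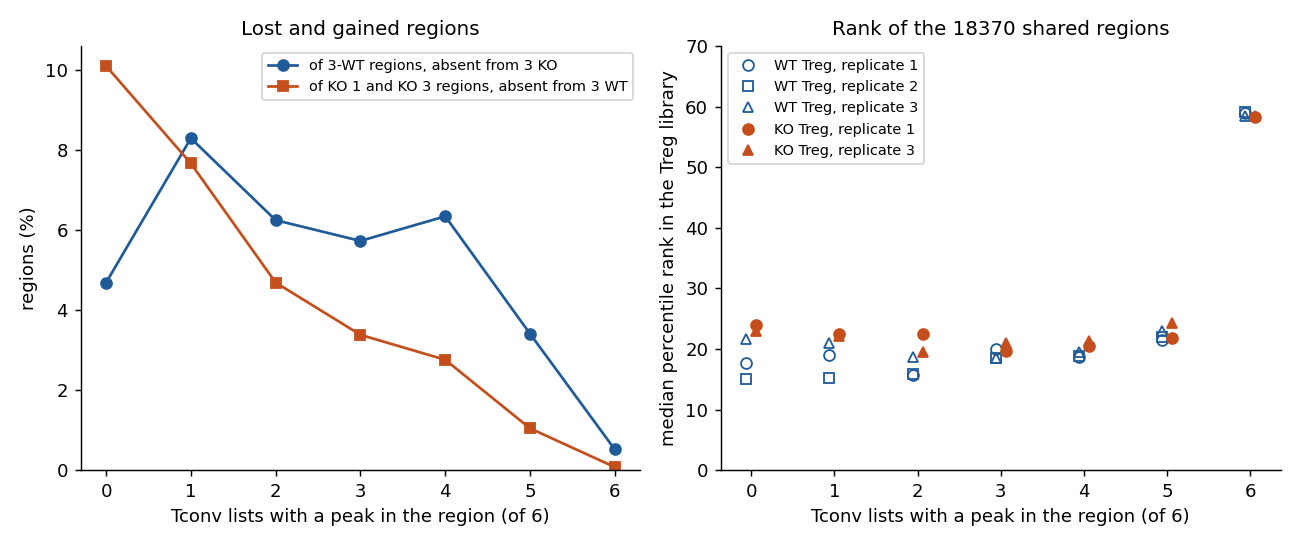
Left, percent of Treg regions lost (blue) or gained without KO replicate 2 (orange) by the number of Tconv lists, of 6, with a peak in the region; right, median percentile rank of the 18370 shared regions in each Treg library. The gained share falls from 10.1% with no Tconv list to 0.0785% with all 6, the lost share is highest with 1 list (8.30%), and the KO medians lie above all WT medians with 0, 1, 2 or 4 Tconv lists.

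Chromosome X held a larger share of each KO list than of any WT list. It carried 2.93%, 2.98% and 2.78% of the peaks of the WT lists and 3.13%, 3.76% and 3.14% of the KO lists (two-sided exact permutation p = 0.1, BH adjusted 0.5 over 5 list properties, and exact p = 0.2 without KO replicate 2). An interval of 2.39 Mb, chrX:120272060-122666816, set by the outermost of 4 gained regions and so chosen on these values, held 171 regions, of which 0 were lost. Of its 72 regions shared by KO replicates 1 and 3, 8 were gained (11.1%, against 1.65% in the whole genome), a share that the choice of the interval raises. It took 0.327%, 0.275% and 0.179% of the WT lists and 0.474%, 0.988% and 0.457% of the KO lists. In Tconv, which did not set the interval, the shares were 0.275%, 0.424% and 0.306% in WT and 0.507%, 0.560% and 0.550% in KO (exact permutation p = 0.1, the smallest possible). The rest of the chromosome took 2.60% to 2.71% of the WT Treg lists and 2.66% to 2.77% of the KO Treg lists (exact permutation p = 0.3). Of the 0.447 percentage points by which the mean share of chromosome X was higher in KO Treg, the interval held 0.379. Without KO replicate 2 these values were 0.239 and 0.205. In Tconv the rest of the chromosome was also higher in KO, at 2.68% to 2.76% against 2.59% to 2.68% (exact permutation p = 0.1), with the highest WT and lowest KO library nearly equal, so the difference in Tconv was not confined to the interval. Its peaks were weak, with a median percentile of 8.64 to 17.8 in the Treg lists other than KO replicate 2.

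**Figure D5:**
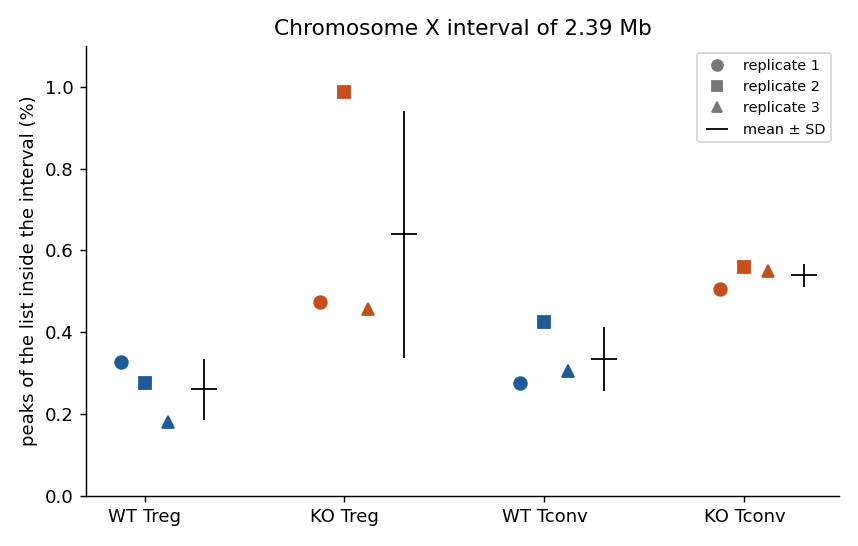
Percent of each list's peaks that lie in the chromosome X interval (y axis from 0), by group, with symbols for replicates and the mean ± SD beside them. KO libraries lie above the WT libraries of the same cell type, and KO Treg replicate 2 is highest at 0.988%.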

How the data were processed

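Broad peaks called in each library were taken as the authors deposited them. Tools named in the submitters' processing notes are MACS2, Bowtie2, DESeq2, DiffBind and Trim Galore (0.4.4), with NCBIM37 as build. The aligner's and caller's settings, any control input and cut-site shifting: not given in the sources used here. The deposited columns are the caller's score, a fold ratio over background, and p-value and q-value as −log10. These belong to a peak in its own list and grow with depth, so they were used only as ranks within a list, and DiffBind and DESeq2 were not run, since the lists hold no counts. Groups and replicate numbers came from the sample titles.

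Peaks of the 6 lists that overlapped or touched were merged, and 1 bp of overlap scored presence. A region took its highest −log10 p. Ranks over shared regions were fitted with limma 3.58.1 (R 4.3.3, trended prior) and tested on simulated data, where percentile ranks recovered few changed regions and normal scores more. Named regions are the 10 lost and the 10 gained regions (with and without KO replicate 2) with the highest lowest percentile, and 5 per direction by limma p among regions whose genotypes do not overlap. Members, lists and tests were chosen with earlier results of these data known. Same-numbered KO and WT libraries did not deviate together, so no block was used in the main fit. Alternatives were stricter peaks, equal list lengths, coverage, gaps, autosomes and each library left out. The planned gene lists and cell type markers were not run for want of an annotation of NCBIM37. Python 3.11.15, pandas 2.3.3, numpy 2.4.6, scipy 1.17.1 and matplotlib 3.10.9 were used. Positions are 1-based.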

Additional observations from a re-analysis of the deposited data

How the results depend on the processing

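Calls of presence moved both with the peak settings and with the libraries. Of 138 alternatives of 14 comparisons, 97 stayed on the same side with the same direction or within 1.5 times. A side means passing the threshold for p or not. The exact tests of list properties and Jaccard index, with a smallest p of 0.1 or 0.2, could not pass it. Only their direction could change, as it did in 8 alternatives. All limma alternatives called 0 regions. The 33 that moved were all region counts or shares without a Tconv peak. The 97 are therefore no measure of how stable presence calls were. Lost regions numbered 49 with 5262 top peaks per list and 1393 when 2 of 3 WT lists were enough, and 321 to 1003 with each library left out. Gained regions numbered 3 with the stricter peaks, 30 with 5262 top peaks, 347 with 22883 top peaks and no KO replicate 2, 6 at 50% coverage, 377 when 2 of 3 KO lists were enough, 5 on autosomes, and 11 to 353 with each library left out. Without KO replicate 2, leaving out another library gave 451 to 1006 lost and 489 to 1612 gained regions, and 50% coverage 580 gained ones. The share of lost regions with no Tconv peak was 12.9% with the stricter peaks and 16.9% to 26.2% with a library left out. That of gained regions was 43.6% with the stricter peaks, 49.9% with 22883 top peaks, 46.6% at 50% coverage and 44.6% to 63.2% with a library left out.

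The sign turned with KO replicate 2 for median peak width (KO minus WT −39.3 bp, −73.5 to 23.5 with a library left out) and covered length (−4.02 Mb, −6.54 to 0.586). The Jaccard index within minus between genotypes was 2.33e-05 with the stricter peaks, 0.00335 with 22883 top peaks and no KO replicate 2, 0.00267 over regions and −0.0869 to 0.126 with a library left out. At the chromosome 7 region from 105637431, WT minus KO libraries was −1 with the stricter peaks. The causes were not tested. Same-numbered libraries correlated at −0.0551, −0.0455 and −0.0430, so the numbers did not pair them. With replicate number as a block limma called 0 regions (smallest adjusted p 0.891, and 0.971 without KO replicate 2), and the peak difference of −6846 had p = 0.75 by exact sign flips. The lists' common lower limit of −log10 p and unknown depth leave weaker and absent signal indistinguishable.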

Other observations

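KO replicate 2 also differed in where its peaks lay. Chromosome 11 carried 2.96% of its 5262 peaks, against 5.37% to 5.77% in the other Treg lists, and chromosome 19 carried 1.58% against 2.38% to 2.53%. Chromosome 7 carried 7.26% against 6.04% to 6.20%, chromosome 13 carried 5.80% against 4.77% to 4.82%, and the Y chromosome 0.570% against 0.109% to 0.138%. In number, the Y chromosome had 30 peaks in KO replicate 2 and 29 to 35 in the other Treg lists. Of its 5244 regions, 539 (10.3%) were in no other Treg list, against 2.75% to 7.58% in the other libraries. Of the 17161 regions found in all 6 Tconv lists it held 26.1%, against 90.7% to 95.2% in the other Treg lists.

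Away from chromosome 7, 3 groups of 3 lost regions lay within 100 kb steps. In the group on chromosome 12 that spans 149 kb, chr12:117249009-117249319 was at percentiles 41.2, 38.2 and 7.58 in WT Treg and absent from KO Treg, while all 6 Tconv lists held it at 51.3 to 82.7. In the group on chromosome 6, chr6:11987696-11988730 was at 29.8, 20.5 and 45.9 in WT Treg and at 63.9 to 77.8 in Tconv. Both were stronger in every Tconv library than in any WT Treg library. The 73.3 kb run on chromosome 7 had no Tconv peak at any of its 4 lost regions.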
